A study of Homo sapiens with 12 samples.

Results

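Solute carriers are membrane proteins that move nutrients, metabolites, ions and metals across the cell surface or the membranes of organelles. The expressed solute carrier genes are described here in cells of the human melanoma line MV3. They were chosen by symbol (SLC followed by a digit) and by level, a mean of at least 1 CPM (counts per 1e6 gene counts) over 12 libraries, which 219 of 430 genes with such a symbol met, of 28100 genes in all. Of the 219, 206 are carriers from 50 numbered families and 13 are genes whose symbol only refers to a carrier. These are antisense or divergent RNAs, neighbours, pseudogenes, a transcription regulator (SLC2A4RG) and an adaptor (SLC4A1AP). Another 111 genes with such a symbol had counts but stayed under the level, and 100 had none. Just inside the level were SLC39A5 at 1.01 CPM, SLC25A53 at 1.01 CPM and SLC25A25-AS1 at 1.06 CPM, and just outside it SLC44A5 at 0.984 CPM, SLC2A13 at 0.965 CPM and SLC25A5-AS1 at 0.923 CPM.

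For 24 h, cells received extracellular vesicles (EVs) at 1e10 particles in each well, or PBS, after 3 h in RPMI with 1% EV-depleted serum. The vesicles came from cultures of THP-1, a human monocytic leukaemia line, that had been brought to a macrophage state and polarized for 48 h, and were collected by ultracentrifugation. The groups were M0 EV, M1 EV and M2 EV, named by the state of the donor macrophages, and Ctrl, the cells given PBS, with 3 libraries each. The labels name no polarizing agent and do not say whether replicates were separate cultures or vesicle preparations, so a p-value here sets a difference against the spread of these libraries, which may be technical.

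Many carriers work in pairs or chains. Several amino acid exchangers of the SLC7 family need the heavy chain SLC3A2 to reach the surface, lactate carriers of the SLC16 family need a chaperone such as basigin, and zinc is brought into the cytosol by the SLC39 family and taken out of it by the SLC30 family. The SLC25 family links the mitochondrial matrix with the cytosol, and members of the SLC35 family feed nucleotide sugars to the Golgi and endoplasmic reticulum. Tumour cells, melanoma cells among them, are known for a high uptake of glucose, glutamine and essential amino acids through some of these proteins.

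The libraries held 9694843 to 14379738 gene counts, of which the 219 genes took 1.23% to 1.28%. Library 2 of the M0 EV group was closest to library 3 of that group, with a chi-square of 1.04 per degree of freedom, where 1 is counting noise (other pairs within a group 1.24 to 2.34), and both were kept. Of 16 melanoma and melanocyte markers 7 passed the filter on low counts: AXL, SOX9, CSPG4, MCAM, VIM, PAX3 and MLANA. Over the 12 libraries, PAX3 had 2331 counts and MLANA 135 counts, whereas SOX10 had 2 counts, PMEL 13 counts and TYR and DCT 0 counts. Of 24 macrophage markers, the cell type that gave the vesicles, 7 had no count (CD163, TYROBP, C1QA, C1QB, C1QC, MARCO and CD86), PTPRC had 2 counts and SPI1 2 counts, and only CD68, which is also made by other cells, passed the filter. CD68 averaged 66.8 CPM in M1 EV cells and 56.7 CPM in Ctrl cells (adjusted p = 2.44e-04, edgeR), and the summed marker level was 58.5 to 60.8 CPM in M0 EV, 68.1 to 69.6 CPM in M1 EV, 60.8 to 63.5 CPM in M2 EV and 56.3 to 63.4 CPM in Ctrl libraries. The part of these transcripts in the results was not tested.

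Cells given M1 vesicles differed from Ctrl cells in 78 of the 219 genes, 41 of them higher and 37 lower. The largest rises were in SLC43A2, SLC15A3 and SLC6A15, which carry amino acids or small peptides, and the largest falls in the glucose carrier SLC2A12, the ion carrier SLC4A11 and the mitochondrial carrier SLC25A23. Genes were called at an adjusted p below 0.05 (edgeR quasi-likelihood test, 2-sided, Benjamini-Hochberg over the 13116 genes tested). The 41 higher genes were 18.7% of the 219, beside 14.3% of all tested genes, and the 37 lower genes were 16.9%, beside 13.7%. In either direction the share was 35.6%, beside 28.1% of all tested genes and 28.7% of those with a mean of at least 1 CPM. The difference between these shares was not tested. Counts by carrier group below stand beside the same shares of all tested genes and were not tested either. All 219 genes had passed the filter on low counts, and the level that chose them was taken over all groups. Of the 78 calls, 27 were lost under at least 1 of 15 alternatives (another tool, scaling or filter, or 1 library left out), and what ended the call is given for each such gene that is named.

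Most of the changes were small. The median log2 fold change of the 219 genes, M1 EV over Ctrl, was 0.03, beside 0.00 for all tested genes, and the median of its absolute value was 0.13, beside 0.12. A called change of at least 0.5 on the log2 scale was found in 12 genes, 5.48% of the 219, beside 4.76% of all tested genes. The called higher genes had a median level of 49.4 CPM and the called lower genes one of 17.5 CPM, and 12 of the 37 lower genes but 6 of the 41 higher genes were under 10 CPM. The same medians over all tested genes were 61.5 CPM for higher and 44.9 CPM for lower genes. In bulk RNA, a change in fewer cells and a smaller change per cell cannot be told apart.

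**Figure D1:**
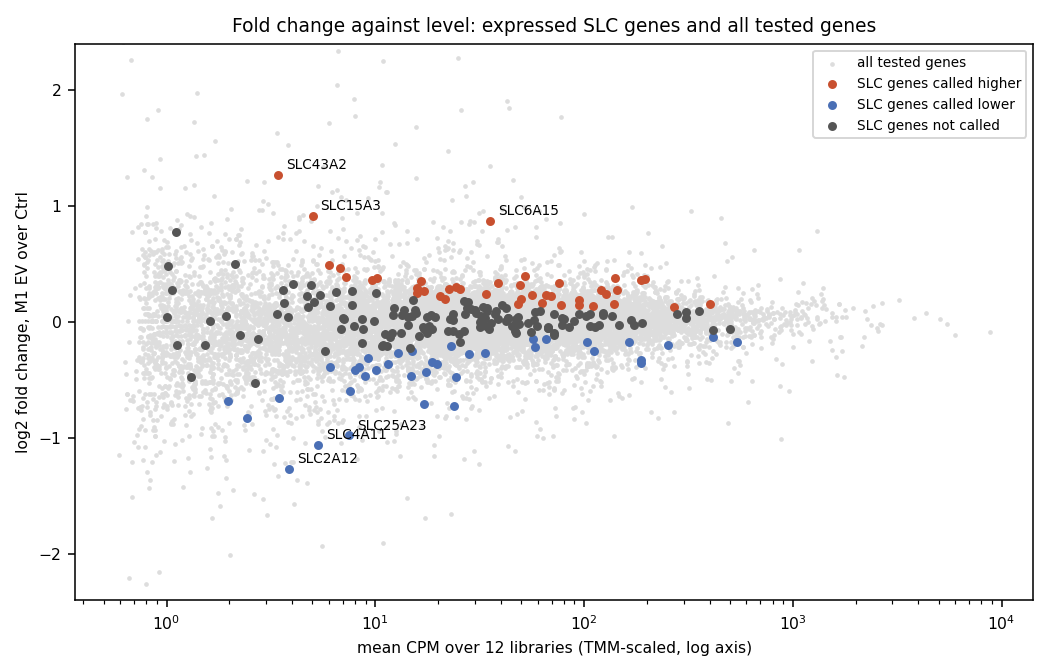
Log2 fold change of M1 EV over Ctrl (y axis) against the mean level in CPM over 12 libraries (x axis, log scale); each point is a gene, grey for all tested genes and coloured for the 219 expressed SLC genes. The called SLC genes lie on both sides of 0, from -1.27 to 1.27, and 17 genes of the grey cloud lie beyond the y axis.

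Vesicles from M0 and M2 macrophages left none of the 219 genes past the threshold. In M0 EV against Ctrl, 0 were called, where 0.0152% of all tested genes were; the smallest adjusted p was 0.537 (edgeR), and 14 of the 219, or 6.39%, had an unadjusted p below 0.05, beside 5.07% of all tested genes. In M2 EV against Ctrl, 0 were called, where 0.0457% of all tested genes were; the smallest adjusted p was 0.49 (edgeR), and 7 of the 219, or 3.2%, had an unadjusted p below 0.05, beside 6.21%. DESeq2 and limma-voom also called 0 of the 219 in both comparisons. These comparisons and that of M1 EV share the Ctrl libraries, so the values are given side by side and not related to each other.

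The vesicle types were also compared directly. Against M0 EV cells, M1 EV cells were higher in 34 of the 219 genes, 15.5% beside 12.5% of all tested genes, and lower in 31, 14.2% beside 12.8%. Against M2 EV cells, M1 EV cells were higher in 47 genes, 21.5% beside 12.6%, and lower in 30, 13.7% beside 12.0%. DESeq2 gave 29 higher and 19 lower genes in the comparison with M2 EV, and its share over all tested genes was not counted. Between M2 EV and M0 EV cells 0 of the 219 genes were called, where 0.0% of all tested genes were; the smallest adjusted p was 0.903 (edgeR), 9 genes had an unadjusted p below 0.05, and DESeq2 and limma-voom called 0.

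Promoters of 4 genes are shown: SLC43A2 had the largest rise and SLC2A12 the largest fall, and SLC38A4 and SLC44A2 were chosen after a match to the consensus of the inflammatory factor NF-kB had been seen near their starts, ahead of larger falls such as those of SLC25A23 and SLC25A42, whose windows held no match to any motif searched. Sequences are from the RefSeq promoter table for GRCh38.p14, 250 bases before to 50 bases after the start of transcription, on the strand of the gene and 5′ to 3′, and the start lies within 55 bases of that of the counted transcript. The windows are chr17:1628785-1629084 (minus strand) for SLC43A2, chr6:134052575-134052874 (minus strand) for SLC2A12, chr12:46825948-46826247 (minus strand) for SLC38A4 and chr19:10602205-10602504 (plus strand) for SLC44A2. Capitals mark a match to the AP-1 element (TGANTCA) in SLC2A12 and to the NF-kB consensus in SLC38A4 and SLC44A2. Matches to the metal and hypoxia elements in these windows are left in lower case.
SLC43A2: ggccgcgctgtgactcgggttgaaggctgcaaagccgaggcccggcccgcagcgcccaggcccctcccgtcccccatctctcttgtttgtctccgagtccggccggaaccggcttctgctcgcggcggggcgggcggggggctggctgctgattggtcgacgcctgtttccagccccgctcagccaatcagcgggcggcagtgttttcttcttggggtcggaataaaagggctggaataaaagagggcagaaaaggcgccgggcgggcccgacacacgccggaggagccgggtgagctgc
SLC2A12: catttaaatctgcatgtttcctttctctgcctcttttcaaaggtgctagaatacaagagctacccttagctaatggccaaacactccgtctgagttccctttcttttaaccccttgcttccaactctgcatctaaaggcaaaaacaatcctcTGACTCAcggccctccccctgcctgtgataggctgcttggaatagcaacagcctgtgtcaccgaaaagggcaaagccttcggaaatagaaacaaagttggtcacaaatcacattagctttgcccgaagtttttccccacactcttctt
SLC38A4: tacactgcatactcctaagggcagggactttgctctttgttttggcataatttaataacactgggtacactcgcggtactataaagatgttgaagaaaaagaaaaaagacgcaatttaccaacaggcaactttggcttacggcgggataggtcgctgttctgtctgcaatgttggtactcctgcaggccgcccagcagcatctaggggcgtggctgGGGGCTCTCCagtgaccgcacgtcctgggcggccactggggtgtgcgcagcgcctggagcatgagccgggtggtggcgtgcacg
SLC44A2: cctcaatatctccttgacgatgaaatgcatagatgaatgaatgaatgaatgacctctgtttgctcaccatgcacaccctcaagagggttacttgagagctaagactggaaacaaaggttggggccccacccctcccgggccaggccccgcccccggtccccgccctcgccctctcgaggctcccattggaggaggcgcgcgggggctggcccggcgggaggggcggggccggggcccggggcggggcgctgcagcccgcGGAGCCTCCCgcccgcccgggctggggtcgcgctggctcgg
The match in SLC2A12 begins 98 bases before the start and that in SLC38A4 34 bases before it, and the match in SLC44A2 begins 9 bases after it.

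Of the 12 genes with a called change of at least 0.5 on the log2 scale, 9 were in the promoter table; SLC4A11, SLC15A3 and SLC6A15 were not matched. The table held 256 windows for 176 of the 219 genes and 35116 windows in all. Both strands were searched, and a match is a description of letters only. The NF-kB consensus was in 16% of the windows of the 219 genes, beside 11.3% of all windows. It was in 20.4% of the windows of genes called higher in M1 EV against Ctrl and 12.8% of those called lower. The difference was not tested. The AP-1 element (TGANTCA) was in 5.86% of the windows, beside 7.71% of all windows. The amino acid response element (TGATGNAA) was in 4.69%, beside 3.62%, and the antioxidant response element (TGACNNNGC) in 16.4%, beside 13.3%. The metal response element (TGCACNC or TGCGCNC) was in 39.1%, beside 29.6%, and the hypoxia element (ACGTG) in 27.3%, beside 21.4%. The other 2 SLC43A2 windows include one, 23802 bases from the start of the counted transcript, that holds an AP-1 match.

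Amino acid carriers held both the largest rise and some of the larger falls among the 219 genes. Of 28 genes in families that carry amino acids and amines, 7 rose, 6 fell and 15 did not pass the test, and the median log2 fold change was 0.02. SLC43A2 (chr17:1569254-1630088), a facilitator of large neutral amino acids such as leucine and phenylalanine, had 2.20, 2.38 and 3.01 CPM in M0 EV cells, 6.60, 5.83 and 4.90 CPM in M1 EV cells, 2.93, 2.77 and 3.50 CPM in M2 EV cells and 2.10, 2.46 and 2.57 CPM in Ctrl cells. The 3 M1 EV libraries lay above all other 9. Its log2 fold change, M1 EV over Ctrl, was 1.27 ± 0.18 (SE; adjusted p = 3.59e-07, edgeR).

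SLC6A15 (chr12:84859491-84912799), a sodium-coupled carrier of branched-chain amino acids and proline, had 29.8, 30.6 and 30.0 CPM in M0 EV cells, 53.0, 53.8 and 50.6 CPM in M1 EV cells, 30.6, 31.1 and 31.6 CPM in M2 EV cells and 28.4, 30.8 and 27.0 CPM in Ctrl cells. All M1 EV values lay above those of the other 9 libraries. It had the smallest adjusted p of the 219 genes, and M1 EV over Ctrl was 0.87 ± 0.06 on the log2 scale (SE; adjusted p = 2.68e-15, edgeR). SLC38A4 (chr12:46764761-46832431), a sodium-coupled carrier of small neutral amino acids, had 26.0, 26.0 and 24.2 CPM in M0 EV cells, 17.3, 15.6 and 17.7 CPM in M1 EV cells, 25.4, 23.3 and 27.8 CPM in M2 EV cells and 27.2, 27.9 and 28.4 CPM in Ctrl cells. Here the M1 EV libraries were the 3 lowest, and the log2 fold change was -0.72 ± 0.08 (SE; adjusted p = 1.76e-09, edgeR).

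The other called amino acid genes changed less. SLC43A3, which is placed in an amino acid family but carries purine nucleobases, averaged 220.3 ± 4.9 CPM in M1 EV cells and 171.5 ± 6.9 CPM in Ctrl cells (SD, n = 3 each), a log2 fold change of 0.36. The glutamate carrier SLC1A3 rose by 0.25 on the log2 scale (call kept in 11 of 15 alternatives, lost under DESeq2 and without Ctrl library 2, Ctrl library 3 or M1 EV library 3; adjusted p 0.00841 to 0.147), the creatine carrier SLC6A8 by 0.19, the exchanger SLC7A6 by 0.16 and the glutamine carrier SLC1A5 by 0.15. Among the falls, the glycine carrier SLC6A9 had a log2 fold change of -0.47 and the cystine and glutamate exchanger SLC7A11 one of -0.27. The taurine carrier SLC6A6 had a log2 fold change of -0.15, SLC38A12 of -0.14 and SLC38A2 of -0.12. The call of SLC6A6 was kept in 12 of 15 alternatives and lost under DESeq2 and without Ctrl library 1 or M1 EV library 1 (adjusted p 0.0117 to 0.131). That of SLC38A12 was kept in 9, and lost under DESeq2, with no filter on low counts and without library 1 or 3 of either group (adjusted p 0.0272 to 0.139). Leaving out Ctrl library 3 or M1 EV library 1 ended the call of SLC38A2 (adjusted p = 0.0551 and adjusted p = 0.0744, edgeR; adjusted p over 15 alternatives 0.00176 to 0.0744).

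The pair that imports essential amino acids did not pass the test. SLC7A5, the light chain, averaged 406.3 ± 10.9 CPM in M1 EV cells and 426.8 ± 19.8 CPM in Ctrl cells (SD, n = 3 each; adjusted p = 0.115, edgeR), and was called without Ctrl library 2 (adjusted p = 0.0244; adjusted p over 15 alternatives 0.0244 to 0.533). Its heavy chain SLC3A2 averaged 147.0 ± 8.5 CPM in M1 EV cells and 149.6 ± 4.3 CPM in Ctrl cells (SD, n = 3 each; adjusted p = 0.711, edgeR). The 6 listed genes of the amino acid response outside the SLC symbols (ATF4, ASNS, CHAC1, DDIT3, TRIB3 and SESN2) had log2 fold changes of -0.12 to 0.14 in M1 EV against Ctrl, with a smallest adjusted p of 0.232 (edgeR).

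**Figure D2:**
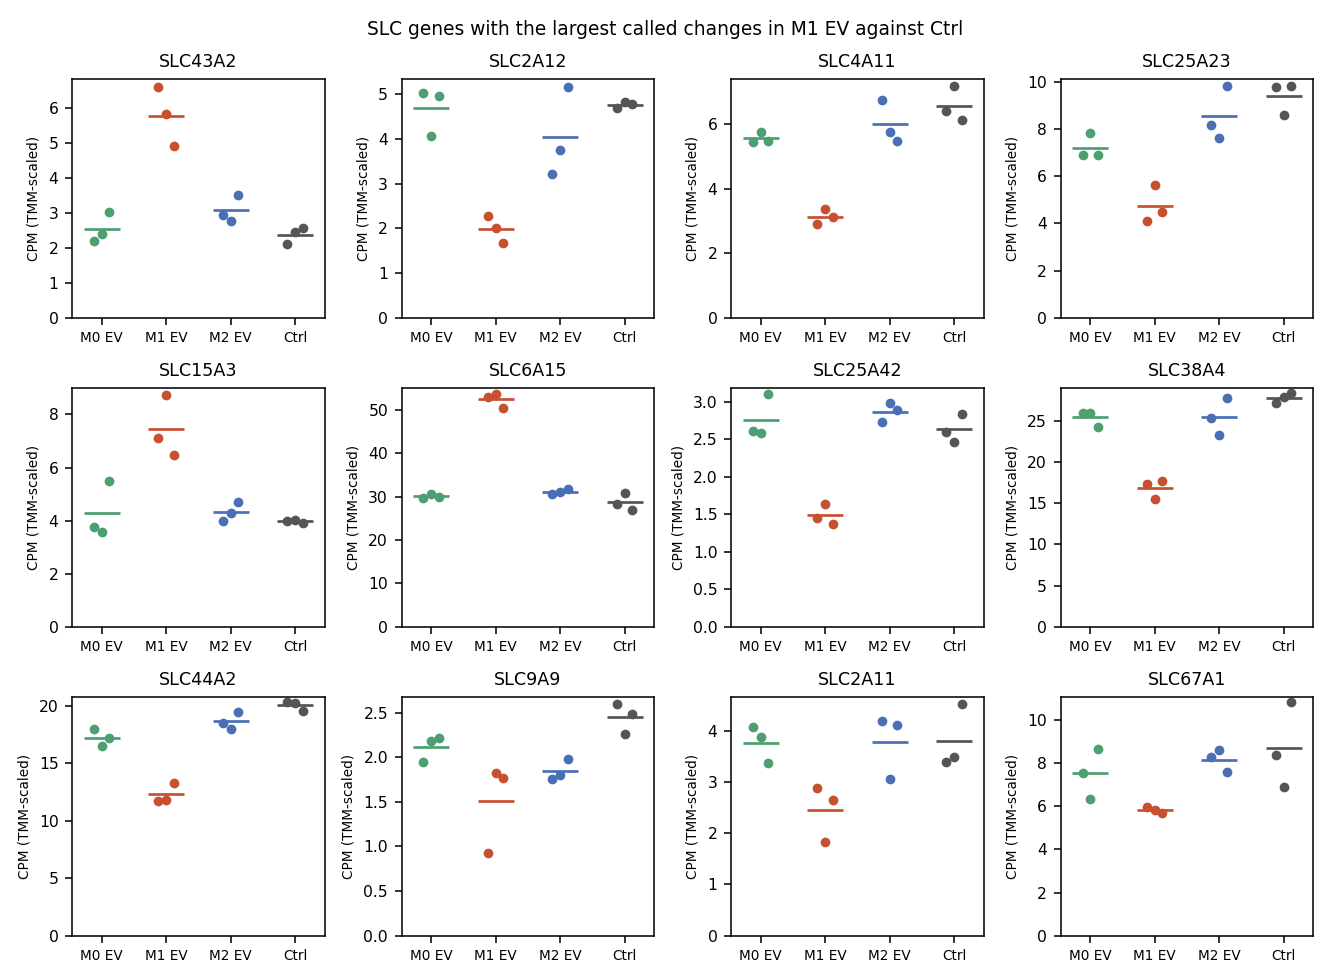
Level in CPM (y axis, linear from 0) in each of 12 libraries for the 12 SLC genes with a called log2 fold change of at least 0.5 in either direction in M1 EV against Ctrl; points are libraries, bars group means, and groups run M0 EV, M1 EV, M2 EV, Ctrl. SLC43A2, SLC15A3 and SLC6A15 are highest in M1 EV cells and the other 9 lowest.

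Sugar carriers had their largest change in a fall. Of 17 genes in sugar and polyol families, 2 rose, 4 fell and 11 did not pass the test, with a median log2 fold change of 0.02. SLC2A12 (chr6:133987581-134052624), a glucose carrier of the surface and of inner membranes, had 5.04, 4.07 and 4.96 CPM in M0 EV cells, 2.27, 2.00 and 1.67 CPM in M1 EV cells, 3.22, 3.75 and 5.17 CPM in M2 EV cells and 4.69, 4.83 and 4.79 CPM in Ctrl cells. The 3 M1 EV libraries were the lowest of the 12, while those of M0 EV and M2 EV overlapped with Ctrl. Its log2 fold change was -1.27 ± 0.20 (SE; adjusted p = 4.20e-06, edgeR), and its span overlaps that of TBPL1.

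The main glucose importer also fell, by less. SLC2A1 averaged 232.2 ± 10.7 CPM in M1 EV cells and 266.1 ± 9.0 CPM in Ctrl cells (SD, n = 3 each; log2 fold change -0.20, adjusted p = 5.45e-05, edgeR). SLC2A8, an intracellular hexose carrier, had a log2 fold change of -0.38 (call kept in 12 of 15 alternatives, lost under DESeq2 and without Ctrl library 3 or M1 EV library 3; adjusted p 0.0109 to 0.192) and SLC2A11 (chr22:23856934-23886312) one of -0.66, and the call of SLC2A11 was lost under DESeq2 (adjusted p = 0.0711) and without Ctrl library 3 or M1 EV library 2 (adjusted p over 15 alternatives 0.00831 to 0.125). SLC2A3, a high-affinity glucose carrier with a near-identical copy in SLC2A14, averaged 7.13 ± 1.48 CPM in M1 EV cells and 6.99 ± 0.83 CPM in Ctrl cells (SD, n = 3 each; adjusted p = 0.89, edgeR). The rises were in SLC2A6, a hexose carrier of the lysosome, at 46 ± 1.7 CPM in M1 EV cells and 36.4 ± 2.2 CPM in Ctrl cells (SD, n = 3 each; log2 fold change 0.34), and in SLC5A6, which carries biotin and pantothenate rather than sugar (log2 fold change 0.32).

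Of the 6 genes of the carboxylate family SLC16, 1 rose, 1 fell and 4 did not pass the test. SLC16A1, a carrier of lactate and pyruvate, had 116.5, 114.6 and 116.7 CPM in M0 EV cells, 141.0, 135.6 and 139.5 CPM in M1 EV cells, 111.0, 113.6 and 116.9 CPM in M2 EV cells and 111.3, 117.6 and 113.8 CPM in Ctrl cells. M1 EV values did not overlap with the others, and the log2 fold change over Ctrl was 0.28 ± 0.04 (SE; adjusted p = 4e-07, edgeR). The lactate exporter SLC16A3 averaged 370.9 ± 22.1 CPM in M1 EV cells and 347.7 ± 28.6 CPM in Ctrl cells (SD, n = 3 each; adjusted p = 0.109, edgeR), and was called in 3 of 15 alternatives, with no filter on low counts (adjusted p = 0.0414), without Ctrl library 3 (adjusted p = 0.0416) and without M1 EV library 3 (adjusted p = 0.0237; adjusted p over 15 alternatives 0.0237 to 0.741). SLC16A5, whose span overlaps ARMC7, had a log2 fold change of -0.43. BSG (basigin), the chaperone of SLC16A1 and SLC16A3, averaged 662.0 ± 26.6 CPM in M1 EV cells and 723.1 ± 39.1 CPM in Ctrl cells (SD, n = 3 each; log2 fold change -0.13, adjusted p = 0.00453, edgeR). Its libraries overlapped, with 683.0 CPM in M1 EV library 2 and 680.4 CPM in Ctrl library 2.

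Importers of zinc were among the called rises. Of 18 zinc carriers, 6 rose, 2 fell and 10 did not pass the test, with a median log2 fold change of 0.09. SLC39A14, which imports zinc and also iron and manganese, had 132.9, 134.8 and 131.0 CPM in M0 EV cells, 167.8, 169.5 and 172.2 CPM in M1 EV cells, 128.4, 129.1 and 133.3 CPM in M2 EV cells and 133.8, 130.2 and 128.0 CPM in Ctrl cells. Its 3 highest libraries were those of M1 EV, and the other groups overlapped. The log2 fold change over Ctrl was 0.38 ± 0.04 (SE; adjusted p = 1.23e-10, edgeR).

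A second importer, SLC39A10, had 225.9, 234.4 and 248.4 CPM in M1 EV cells and 184.6, 183.5 and 178.2 CPM in Ctrl cells, so that M1 EV over Ctrl was 0.38 ± 0.04 on the log2 scale (SE; adjusted p = 9.67e-10, edgeR). Its close relative SLC39A6 averaged 165.1 ± 8.4 CPM in M1 EV cells and 136.4 ± 4.8 CPM in Ctrl cells (SD, n = 3 each; log2 fold change 0.28). SLC39A8, another importer of zinc and manganese, averaged 25.7 ± 1.7 CPM in M1 EV cells and 21.2 ± 0.3 CPM in Ctrl cells (SD, n = 3 each; log2 fold change 0.29). SLC30A7, which loads the Golgi, rose by 0.16 on the log2 scale, and SLC39A1 by 0.13. The falls were in SLC39A11, with a log2 fold change of -0.34, and in SLC30A4, which loads vesicles, with -0.39. The call of SLC30A7 was kept in 9 of 15 alternatives and lost under DESeq2, on summing transcripts and without library 2 or 3 of either group (adjusted p 0.00362 to 0.186). That of SLC30A4 was also kept in 9, and lost under DESeq2, with no filter on low counts and without library 1 or 2 of either group (adjusted p 0.0262 to 0.173).

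SLC30A1, the zinc exporter of the surface, averaged 11.3 ± 0.4 CPM in M1 EV cells and 9.5 ± 0.94 CPM in Ctrl cells (SD, n = 3 each) and did not pass the test (adjusted p = 0.0808, edgeR). Of 4 tested genes of the zinc response other than carriers, 1 was called: MT2A, a metallothionein that binds zinc, averaged 626.0 ± 39.7 CPM in M1 EV cells and 434.8 ± 20.3 CPM in Ctrl cells (SD, n = 3 each; log2 fold change 0.53, adjusted p = 2.58e-14, edgeR). Metallothionein genes have near-identical copies, so the split of reads among them is uncertain.

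**Figure D3:**
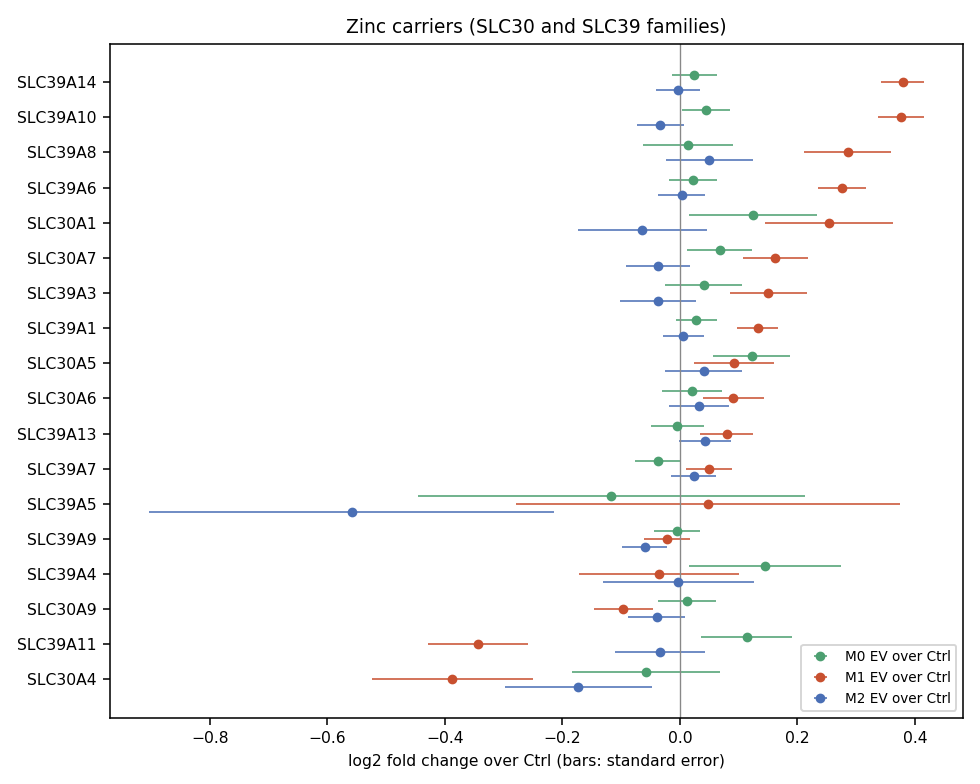
Log2 fold change over Ctrl (x axis, bars are standard errors) of the 18 zinc carriers in M0 EV, M1 EV and M2 EV cells, 3 libraries per group, sorted by the M1 EV value. SLC39A14 and SLC39A10 stand at 0.38 in M1 EV and near 0 in M0 EV and M2 EV cells, and SLC39A5, at the level of 1 CPM, has the widest bars.

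Of 8 genes that carry iron, copper, magnesium or heme, 2 rose and 0 fell. SLC11A2, the iron importer of the surface and endosome, averaged 38.1 ± 0.5 CPM in M1 EV cells and 32.3 ± 1.9 CPM in Ctrl cells (SD, n = 3 each; log2 fold change 0.24, adjusted p = 0.00269, edgeR). SLC41A2, a magnesium carrier, had a log2 fold change of 0.36, which DESeq2 did not call (adjusted p = 0.074; adjusted p over 15 alternatives 0.00521 to 0.1), nor did fits without Ctrl library 2, Ctrl library 3 or M1 EV library 3. The iron exporter SLC40A1 had 0 counts over the 12 libraries. Of 5 tested genes of iron handling outside the symbols, 2 rose and 1 fell. The transferrin receptor TFRC averaged 849.4 ± 14.7 CPM in M1 EV cells and 551.0 ± 11.3 CPM in Ctrl cells (SD, n = 3 each; log2 fold change 0.62, adjusted p = 8.31e-19, edgeR). The ferritin heavy chain FTH1 rose by 0.24 on the log2 scale and the ferritin light chain FTL had a log2 fold change of -0.13.

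Carriers of vitamins, nucleosides and choline were called in 7 of 9 genes, 5 higher and 2 lower, beside 28.1% of all tested genes in either direction (the difference was not tested), with a median log2 fold change of 0.14. The thiamine carrier SLC19A2 averaged 8.57 ± 0.89 CPM in M1 EV cells and 6.22 ± 0.23 CPM in Ctrl cells (SD, n = 3 each; log2 fold change 0.46, adjusted p = 0.00393, edgeR). The folate carrier SLC19A1, whose span overlaps COL18A1, rose by 0.23 on the log2 scale, the nucleoside carrier SLC29A1 by 0.22, the folate carrier SLC46A1 by 0.20 and the riboflavin carrier SLC52A2 by 0.14. The libraries of SLC46A1 overlapped, at 20.9, 25.4 and 23.0 CPM in M1 EV cells and 19.7, 19.5 and 21.2 CPM in Ctrl cells (adjusted p = 0.0413, edgeR). Its call was kept in 8 of 15 alternatives and lost under DESeq2, in a fit of the M1 EV and Ctrl libraries alone, with no filter on low counts and without Ctrl library 1, Ctrl library 2, M1 EV library 2 or M1 EV library 3 (adjusted p 0.0133 to 0.336). That of SLC52A2 was kept in 13 and lost without library 2 of either group (adjusted p 0.00302 to 0.114).

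Both choline carriers fell. SLC44A2 (chr19:10602455-10644557) had 18.0, 16.5 and 17.2 CPM in M0 EV cells, 11.8, 11.8 and 13.3 CPM in M1 EV cells, 18.5, 18.0 and 19.5 CPM in M2 EV cells and 20.4, 20.2 and 19.5 CPM in Ctrl cells. The M1 EV libraries were the 3 lowest, and the log2 fold change over Ctrl was -0.70 ± 0.08 (SE; adjusted p = 1.65e-08, edgeR). The 3 M0 EV libraries also lay below the Ctrl libraries, but the log2 fold change of -0.21 did not pass the test (adjusted p = 0.747, edgeR). SLC44A1 had a log2 fold change of -0.17 in M1 EV against Ctrl.

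Among 36 genes of the mitochondrial family SLC25, 7 rose, 3 fell and 26 did not pass the test, with a median log2 fold change of 0.05. SLC25A32, which carries folate and flavin, had 73.0, 69.1 and 70.4 CPM in M0 EV cells, 92.0, 88.2 and 91.9 CPM in M1 EV cells, 69.7, 69.0 and 73.6 CPM in M2 EV cells and 71.3, 72.9 and 71.0 CPM in Ctrl cells. Again all M1 EV values lay highest, and the log2 fold change over Ctrl was 0.34 ± 0.04 (SE; adjusted p = 1.14e-07, edgeR). Rises called in this family included SLC25A15 for ornithine (0.30 on the log2 scale), SLC25A33 for pyrimidine nucleotides (0.29), SLC25A17 of the peroxisome (0.27), the iron importer SLC25A37 (0.23) and the aspartate and glutamate carrier SLC25A13 (0.20). The call of SLC25A33 was kept in 12 of 15 alternatives and lost under DESeq2, on summing transcripts and without Ctrl library 3 (adjusted p 0.00807 to 0.14). That of SLC25A17 was also kept in 12, and lost under DESeq2 and without Ctrl library 1 or M1 EV library 3 (adjusted p 0.00224 to 0.103), and that of SLC25A13 was lost without M1 EV library 2 (adjusted p = 0.0564).

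The 2 largest mitochondrial changes were falls. SLC25A23 (chr19:6436081-6459792), a calcium-regulated carrier of ATP-magnesium and phosphate, had 6.91, 7.84 and 6.90 CPM in M0 EV cells, 4.13, 5.65 and 4.51 CPM in M1 EV cells, 8.20, 7.63 and 9.81 CPM in M2 EV cells and 9.79, 8.62 and 9.85 CPM in Ctrl cells. The M1 EV libraries were lowest, the M0 EV libraries lay between them and Ctrl, and the log2 fold changes over Ctrl were -0.39 in M0 EV (adjusted p = 0.537, edgeR) and -0.98 ± 0.14 in M1 EV (SE; adjusted p = 4.67e-07, edgeR). SLC25A42 (chr19:19063994-19113030), a carrier of coenzyme A, averaged 1.49 ± 0.14 CPM in M1 EV cells and 2.63 ± 0.19 CPM in Ctrl cells (SD, n = 3 each; log2 fold change -0.82, adjusted p = 0.00817, edgeR). The citrate carrier SLC25A1 had a log2 fold change of -0.17. The span of SLC25A23 overlaps that of SLC25A41.

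Of 33 carriers of sodium, chloride, calcium, bicarbonate, phosphate and sulfate, 3 rose, 9 fell and 21 did not pass the test, with a median log2 fold change of -0.05. SLC4A11 (chr20:3227417-3239559), a proton-conducting member of the bicarbonate carrier family, had 5.45, 5.76 and 5.49 CPM in M0 EV cells, 2.89, 3.37 and 3.13 CPM in M1 EV cells, 6.73, 5.76 and 5.48 CPM in M2 EV cells and 6.39, 7.19 and 6.12 CPM in Ctrl cells. The M1 EV libraries were the 3 lowest, at a log2 fold change over Ctrl of -1.06 ± 0.15 (SE; adjusted p = 8.22e-07, edgeR), and the gene's span overlaps ITPA. The phosphate carrier SLC20A1 averaged 502.0 ± 11.7 CPM in M1 EV cells and 564.9 ± 2.6 CPM in Ctrl cells (SD, n = 3 each; log2 fold change -0.17, adjusted p = 5.22e-05, edgeR). SLC12A8 had a log2 fold change of -0.25, a call kept in 9 of 15 alternatives. That call was lost under DESeq2 and without Ctrl library 1 or 3 or M1 EV library 1, 2 or 3 (adjusted p 0.0143 to 0.192).

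Sodium and proton exchangers of inner membranes were among the falls. SLC9A7 had a log2 fold change of -0.25. SLC9A9 (chr3:143265222-143848468) had 1.95, 2.18 and 2.21 CPM in M0 EV cells, 0.928, 1.82 and 1.76 CPM in M1 EV cells, 1.76, 1.80 and 1.98 CPM in M2 EV cells and 2.6, 2.26 and 2.48 CPM in Ctrl cells. Its M1 EV libraries lay below those of Ctrl, and so did all its M0 EV and M2 EV libraries. M1 EV libraries 2 and 3 overlapped with M2 EV, and neither M0 EV nor M2 EV against Ctrl passed the test. In M1 EV against Ctrl, 1 library decided the size. The log2 fold change was -0.68 (adjusted p = 0.0363, edgeR) and -0.45 without M1 EV library 1 (adjusted p = 0.263, edgeR). Over 15 alternatives the adjusted p was 0.02 to 0.263. Leaving out Ctrl library 1 or 3 also ended the call, as did DESeq2 and summing transcripts. The rises were in the anion exchanger SLC4A2, at 144.6 ± 4.0 CPM in M1 EV cells and 122.5 ± 2.2 CPM in Ctrl cells (SD, n = 3 each; log2 fold change 0.24), in the sodium and calcium exchanger of mitochondria SLC8B1 (0.29) and in the sodium bicarbonate carrier SLC4A7 (0.15). The calcium exchanger of the surface SLC8A1 had a log2 fold change of -0.36. The calls of SLC4A7 and SLC8A1 were each kept in 12 of 15 alternatives and lost under DESeq2 and without Ctrl library 3, and further without M1 EV library 3 for SLC4A7 (adjusted p 0.00629 to 0.201) and without M1 EV library 2 for SLC8A1 (adjusted p 0.00646 to 0.15). SLC4A3 and SLC4A8 also fell, at log2 fold changes of -0.31 and -0.27, and each call was kept in 8 of 15 alternatives. Both were lost under DESeq2, with no filter on low counts and without Ctrl library 1 or 2. SLC4A3 also lost its call without Ctrl library 3 or M1 EV library 1 or 3 (adjusted p 0.00674 to 0.161). SLC4A8 lost it on summing transcripts and without M1 EV library 2 or 3 (adjusted p 0.0215 to 0.232).

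Of 15 carriers of organic ions, peptides, lipids and vesicle cargo, 3 rose and 2 fell. SLC15A3 (chr11:60937084-60952176), which moves histidine and small peptides out of the lysosome and endosome, had 3.74, 3.58 and 5.49 CPM in M0 EV cells, 7.12, 8.75 and 6.46 CPM in M1 EV cells, 4.0, 4.30 and 4.72 CPM in M2 EV cells and 4.0, 4.0 and 3.90 CPM in Ctrl cells. All 3 M1 EV libraries were above the other 9, and the log2 fold change over Ctrl was 0.91 ± 0.16 (SE; adjusted p = 1.41e-05, edgeR); the span overlaps TMEM132A. SLC22A4, a carrier of ergothioneine, rose by 0.49 on the log2 scale.

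SLC18A2, the vesicular monoamine carrier, had similar means in all vesicle groups. It averaged 7.68 ± 1.15 CPM in M0 EV cells, 7.85 ± 0.35 CPM in M1 EV cells, 7.59 ± 0.84 CPM in M2 EV cells and 5.99 ± 0.68 CPM in Ctrl cells (SD, n = 3 each). Only the comparison of M1 EV passed the test (log2 fold change 0.39, adjusted p = 0.0262, edgeR), and this call was kept in 10 of 15 alternatives and lost under DESeq2, on summing transcripts and without Ctrl library 1, Ctrl library 3 or M1 EV library 1 (adjusted p 0.018 to 0.115), while those of M0 EV, at 0.36, and M2 EV, at 0.34, did not (adjusted p = 0.747 and adjusted p = 0.659). M1 EV over M0 EV was 0.03 on the log2 scale (adjusted p = 0.887, edgeR). SLC17A5, the sialic acid exporter of the lysosome, had a log2 fold change of -0.27 and the fatty acid carrier SLC27A1 one of -0.41 in M1 EV against Ctrl; without M1 EV library 1 SLC27A1 was no longer called (adjusted p = 0.0833, edgeR).

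Of 25 genes placed by family number alone among carriers of the Golgi and endoplasmic reticulum, 3 rose and 3 fell. Where each protein lies in the cell was not examined. SLC35F2 averaged 64.8 ± 1.6 CPM in M1 EV cells and 49.3 ± 1.7 CPM in Ctrl cells (SD, n = 3 each; log2 fold change 0.39, adjusted p = 2.10e-07, edgeR). SLC35E2B averaged 156.8 ± 7.2 CPM in M1 EV cells and 200.3 ± 3.9 CPM in Ctrl cells (SD, n = 3 each; log2 fold change -0.35, adjusted p = 5.60e-09, edgeR). The neighbouring SLC35E2A, a near-identical copy, had a log2 fold change of -0.47, and how reads were split between these copies is uncertain. SLC33A2 had a log2 fold change of -0.36.

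In the 11 genes of other families, 0 rose and 3 fell. The urea carrier SLC14A1 had 191.8, 191.0 and 188.9 CPM in M0 EV cells, 159.4, 160.6 and 162.1 CPM in M1 EV cells, 189.0, 193.2 and 199.2 CPM in M2 EV cells and 195.5, 203.7 and 205.7 CPM in Ctrl cells. Its 3 lowest libraries were those of M1 EV, with a log2 fold change over Ctrl of -0.33 ± 0.04 (SE; adjusted p = 2.41e-09, edgeR). SLC66A3 had a log2 fold change of -0.41, which DESeq2 did not call (adjusted p = 0.0735; adjusted p over 15 alternatives 0.00171 to 0.0766), nor did a fit without Ctrl library 2. SLC67A1 (chr11:2899691-2925246) had a log2 fold change of -0.59, and of -0.39, no longer called, without Ctrl library 3 (adjusted p = 0.0594, edgeR; adjusted p over 15 alternatives 0.000179 to 0.0594); its span overlaps SLC67A1-AS.

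**Figure D4:**
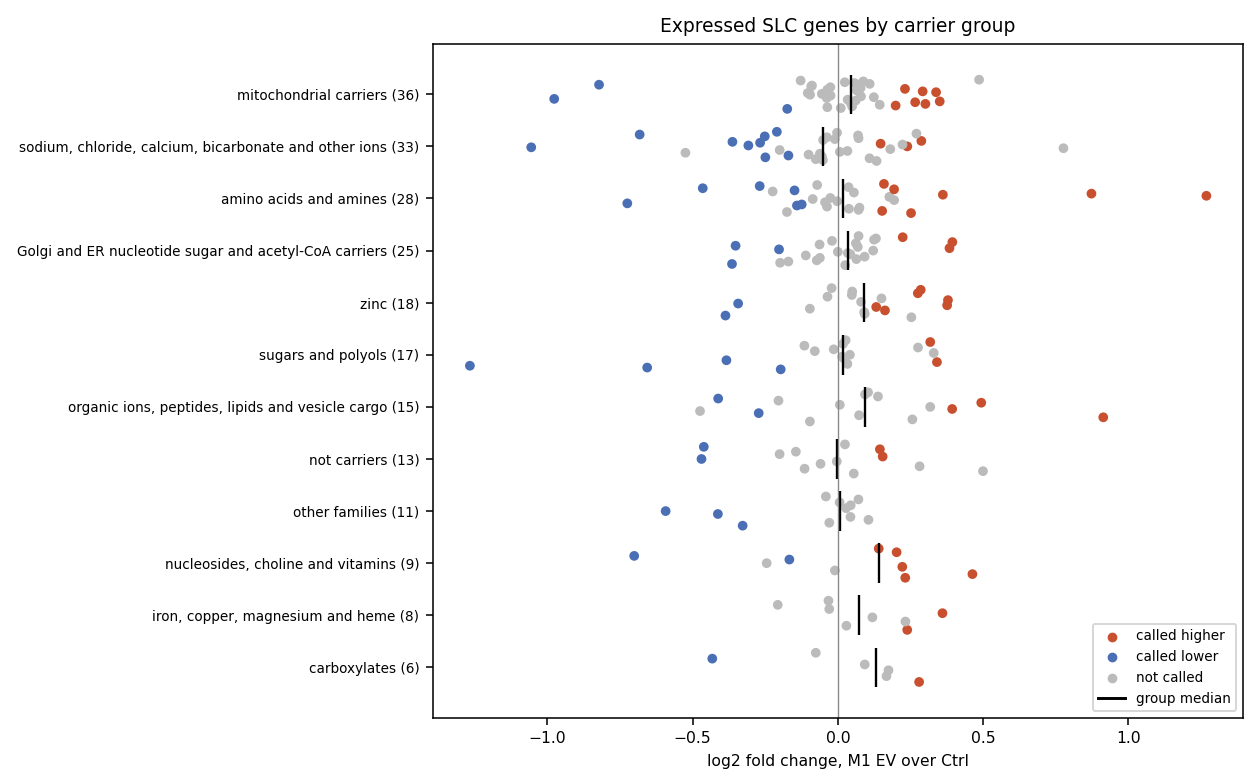
Log2 fold change of M1 EV over Ctrl (x axis) for each of the 219 expressed SLC genes, by carrier group with the number of genes in brackets; colour shows the call and the black line the group median. Of 18 zinc carriers 6 are called higher and 2 lower, and of 33 genes in the sodium, chloride and calcium group 3 higher and 9 lower. Among all tested genes 14.3% were called higher and 13.7% lower, and the difference was not tested.

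Of the 13 genes that are not carriers themselves, 2 rose and 2 fell. SLC7A6OS, which overlaps SLC7A6 on the genome, had a log2 fold change of 0.14 and SLC4A1AP one of 0.15 (call kept in 9 of 15 alternatives, lost under DESeq2, on summing transcripts and without Ctrl library 1, Ctrl library 2, M1 EV library 1 or M1 EV library 3; adjusted p 0.0227 to 0.108). SLC9A3-AS1, an antisense RNA of SLC9A3, had one of -0.46. No source used here says whether counting was by strand, so reads of overlapping genes cannot be told apart.

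Levels can be set against each other between genes only per length. Those per kilobase of the counted transcript, over the 12 libraries, were 262.9 CPM per kilobase for the phosphate carrier SLC25A3, 242.9 for the ADP and ATP exchanger SLC25A5, 178.4 for SLC16A3, 160.4 for SLC20A1 and 139.3 for SLC1A5. They were followed by SLC39A1 at 112.4, SLC2A4RG at 109.2, SLC25A1 at 100.1, SLC7A5 at 91.7 and SLC38A2 at 84.5 CPM per kilobase. Of these, SLC2A4RG is a transcription regulator and not a carrier. SLC25A3 averaged 492.1 ± 5.9 CPM in M1 EV cells and 511.1 ± 14.2 CPM in Ctrl cells (SD, n = 3 each; adjusted p = 0.211, edgeR). SLC25A5 had a log2 fold change of 0.09 (adjusted p = 0.0502, edgeR) and passed the threshold under limma-voom, RLE or upper-quartile scaling, a filter at 1 CPM and without Ctrl library 3.

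Genes that work with carriers or carry solutes under other names were looked up from a list of 63, of which 48 were tested, 12 rose and 6 fell, beside 14.3% higher and 13.7% lower among all tested genes, with a median log2 fold change of 0.06. Besides TFRC, MT2A and the ferritin chains, named above, the smallest adjusted p-values were in 4 genes. NQO1, an enzyme of the antioxidant response, averaged 323.1 ± 16.6 CPM in M1 EV cells and 457.4 ± 6.35 CPM in Ctrl cells (SD, n = 3 each; log2 fold change -0.50, adjusted p = 1.58e-14, edgeR). The 6 listed antioxidant genes are the factor NFE2L2 and 5 genes that it is known to control. NFE2L2 rose by 0.14 on the log2 scale (adjusted p = 0.0199, edgeR), SRXN1 by 0.15 (adjusted p = 0.00762) and GCLM by 0.17 (adjusted p = 0.041). NQO1 fell, as did TXNRD1 with a log2 fold change of -0.20, and HMOX1 did not pass the test (adjusted p = 0.0889, edgeR). SLCO4A1, an organic anion carrier, averaged 32.9 ± 2.5 CPM in M1 EV cells and 21.7 ± 0.6 CPM in Ctrl cells (SD, n = 3 each; log2 fold change 0.60, adjusted p = 1.47e-08, edgeR), and SFXN3, a mitochondrial serine carrier, had a log2 fold change of -0.39. Of 25 tested carriers of other names, 6 rose and 2 fell.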

How the data were processed

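RNA of MV3 cells was sequenced in 12 libraries, 3 per group, from directional poly(A) preparations, per the labels. The submitters' processing notes name STAR 2.6.1b, HOMER 4.10 and hg38 without their roles. The deposited values are expected counts for 70507 RefSeq transcripts, not normalized by the authors, in steps of 0.5; they were rounded to whole counts. RefSeq (GRCh38.p14) named 69830 transcripts and GENCODE 343; the 334 unnamed held at most 0.062% of counts. The transcript with most counts stood for each gene. A column whose name lacks a digit of the line's name, the last one left, is read as replicate 1 of M0 EV.

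edgeR 4.0.16 (R 4.3.3) tested 13116 genes kept by its default filter (99.91% of counts), with TMM scaling (0.9929 to 1.0067), 1 term per group, 12 libraries and 8 residual degrees of freedom. CPM values are TMM-scaled, with SD over 3 libraries; fold changes are log2 with the model's SE. Lengths, from GENCODE, were found for 197 of the 219 genes. Carriers were grouped by family number. Alternatives used DESeq2 1.42.0, limma 3.58.1 (voom), other scalings and filters, summed transcripts, a replicate block and left-out libraries; the test was tried on simulated data. The promoter table is RefSeq's.

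Genes named in M1 EV against Ctrl were called ones of at least 0.5 on the log2 scale, up to 3 per carrier group by adjusted p, the 10 highest per kilobase, 15 fixed genes and those nearest the level of 1 CPM; other called genes were added after their values were seen. The genes, lists and rule were chosen with earlier results of these data known.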

Additional observations from a re-analysis of the deposited data

How the results depend on the processing

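Of the 78 genes called in M1 EV against Ctrl, 51 (29 higher, 22 lower) kept call and direction under all 15 alternatives and 27 lost the call under at least 1. DESeq2 called 31 higher and 25 lower in that comparison, against 41 and 37 with edgeR, and 29 higher and 19 lower in M1 EV against M2 EV, against 47 and 30; the cause was not tested. Leaving out 1 library gave 35 to 41 higher and 28 to 34 lower genes in M1 EV against Ctrl. Shares over all tested genes were not counted for any alternative. Pairing of the libraries by replicate number was described and not tested. The 18 correlations of same-numbered libraries' deviations were -0.048 to 0.09, and 6 of 12 libraries correlated best with their own number. A replicate block gave 42 higher and 37 lower genes. M0 EV libraries 2 and 3, summed as 1 sample after their closeness was seen, gave 0 genes in M0 EV against Ctrl and 33 higher and 28 lower in M1 EV against M0 EV. Genes of a few CPM, as among the largest changes, have the fewest counts and widest errors, and intervals cover counting and library spread only.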
